A study of Mus musculus with 9 samples.

Results

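Cells of PancOVA, a tumour cell line from the mouse pancreas, were compared by messenger RNA sequencing after co-culture with fibroblasts in the inflammatory state (iCAF) or in the myofibroblast-like state (myCAF), with 3 libraries in each group. The 6 libraries were part of a series of 9, and the other 3 held tumour cells from co-cultures with quiescent pancreatic stellate cells (qPSC). These 3 are given as background, and they also entered the estimate of the spread behind the limma p-values. Values were TPM (transcripts per 1000000 transcripts), a level corrected for gene length and library total, and all 11490 genes of 41457 with at least 1 TPM in at least 3 of the 6 libraries were compared. In every group the stellate cells came from the line mPSC45 CD90.1 and were kept in matrigel to make them quiescent. For the iCAF group they were then primed for 48 h with medium conditioned by Tc17 cells, and for the myCAF group for 48 h with recombinant human TGF-β1 at 2 ng/ml. Fibroblasts of the qPSC group received no priming. Each culture then received PancOVA cells labelled with the dye eFluor 670, and after 48 h the gels were digested with collagenase D and DNase, the cells were stained for CD90.1, and dye-positive cells were sorted. All fibroblasts thus came from 1 line and all tumour cells from another, and whether the replicates were separate cultures is not stated, so the p-values rest on differences among these libraries, which could be purely technical.

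Cancer-associated fibroblasts of the pancreas occur in several states. TGF-β drives stellate cells towards a contractile, matrix-producing state, whereas inflammatory cytokines such as IL-1 drive them towards a state that secretes cytokines such as IL-6. Tc17 cells are CD8 T cells that make IL-17, a cytokine that acts on fibroblasts and epithelial cells. The comparison asked how the tumour cells themselves differ after contact with each of these states.

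The labels were checked against marker genes before the comparison. Of 15 keratin and epithelial junction genes, 7 were measured in enough libraries to be tested, and their sum over the list was 1673 to 1815 TPM in iCAF, 1837 to 1897 TPM in myCAF and 1666 to 1763 TPM in qPSC libraries. Krt8, a keratin of simple epithelia, had 744, 773 and 795 TPM in iCAF, 829.9, 815 and 813 TPM in myCAF and 794, 773 and 783 TPM in qPSC libraries, while Epcam and Cdh1 were at or near 0 in every library. None of 18 leukocyte markers was high enough to be tested, and 8 to 14 of them were at 0 in each library. In iCAF replicate 3, 1 of them reached 1 TPM. Of 20 fibroblast markers, 17 were tested, and their sum was 411 to 705 TPM in iCAF, 745 to 1363 TPM in myCAF and 716 to 868 TPM in qPSC libraries, with at most 1 marker (Fap) at 0. The mean log2(TPM + 1) of the 17 was 4.11 ± 0.45 in the iCAF and 5.37 ± 0.52 in the myCAF group, with 4.88 ± 0.17 in the qPSC group (SD, n = 3 each). The iCAF and myCAF ranges did not overlap, and an exact two-sided permutation test gave p = 0.1, the smallest that 3 against 3 libraries allow. In bulk libraries such as these, fewer cells of a type and less RNA per cell cannot be told apart.

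The steps between low TPM values implied 38870602 to 45317258 reads per library. A single library, iCAF replicate 3, differed from the rest in composition. Its ribosomal protein genes took 20.9% of all TPM, against 14.6% and 14.8% in the other iCAF, 14.0% to 14.9% in the myCAF and 14.0% to 14.9% in the qPSC libraries. Its median log2(TPM + 1) over tested genes was 4.01, below the 4.40 to 4.52 of the other 8. On the first principal component, which held 61.7% of the variance, its score was 55.3 and the other scores ran from -15.3 to 8.47. Calls and adjusted p-values are therefore given with and without it. Rescaling all libraries without ribosomal protein genes moved the median log2 fold change of all tested genes, iCAF minus myCAF, from -0.15 to -0.12. Leaving out iCAF replicate 3 moved it to -0.03. Why most levels were lower in that library was not tested.

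With all libraries, 7 of the 11490 genes (0.0609%) passed the test at an adjusted p under 0.05 (limma on log2(TPM + 1), Benjamini-Hochberg over all tested genes), and each of the 7 was lower in iCAF than in myCAF libraries. None was higher, and limma-voom, run as another tool, also called 0 higher genes. At an unadjusted p under 0.05, limma gave 278 genes higher (2.42%) and 1757 lower (15.3%), and without iCAF replicate 3 720 higher (6.27%) and 1588 lower (13.8%). Without iCAF replicate 3, limma called 70 genes (0.609%), of which 56 were lower (0.487%) and 14 higher (0.122%), and the 70 included all 7. The 56 were 1.22-fold to 9.23-fold lower with a median of 1.60-fold, and the 14 were 1.196-fold to 1.48-fold higher with a median of 1.32-fold. In the library left out, iCAF replicate 3, the level was also below all 3 myCAF libraries for 53 of the 56, against 74.5% of all tested genes, and above them for 6 of the 14, against 14.6% of all tested genes. Centring each library on its median left 0 calls with all libraries, with an unadjusted p under 0.05 for 1475 higher and 1135 lower genes, and 17 higher and 33 lower calls without iCAF replicate 3.

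Other single libraries moved the counts too. Leaving out iCAF replicate 2 in place of replicate 3 gave 332 lower and 9 higher calls, of which 42 were among the 70, and leaving out myCAF replicate 2 gave 226 lower and 2 higher calls, of which 21 were among the 70. With iCAF replicate 3 out, leaving out 1 library more gave between 4 lower calls (without iCAF replicate 1) and 874 (without myCAF replicate 2), with 16 without myCAF replicate 1, 19 without myCAF replicate 3, 218 without iCAF replicate 2 and 11, 17 and 23 without qPSC replicates 1, 2 and 3. In these 8 fits Nr4a1, Nr4a2 and Nr4a3 were called every time, Postn, Arrdc3, Usp2, Hilpda, Inhbb and Sod3 in 7, Txnip and Fam110c in 6 and Spry2 in 5. Each of the others among the named genes called without iCAF replicate 3 was called in 1 to 4 of the 8.

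The median log2 fold change, iCAF minus myCAF, over all tested genes was -0.15 with all libraries and -0.03 without iCAF replicate 3, so list medians are set against these 2 values. Centring moved the first to 0.04. Counts of called list members are to be read against 0.0609% of all tested genes called lower with all libraries and 0.487% without iCAF replicate 3. Negative fold changes made up 75.5% of the genes with all libraries and 57.9% without iCAF replicate 3. For 18.2% of the genes all 3 iCAF libraries lay below all 3 myCAF libraries, and for 4.58% they lay above. Some genes (58) passed the filter on low values only through the myCAF libraries and 2 only through the iCAF libraries. A gene of this kind had to differ between the groups, and 3 of the 70 called genes, Postn and Myl9 among them, passed only through myCAF. That count includes iCAF replicate 3 among the libraries, although the 70 were called without it. Il6, also among the 70, reached 1 TPM in iCAF only in replicate 3, so the same limit applies to its call.

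**Figure D1:**
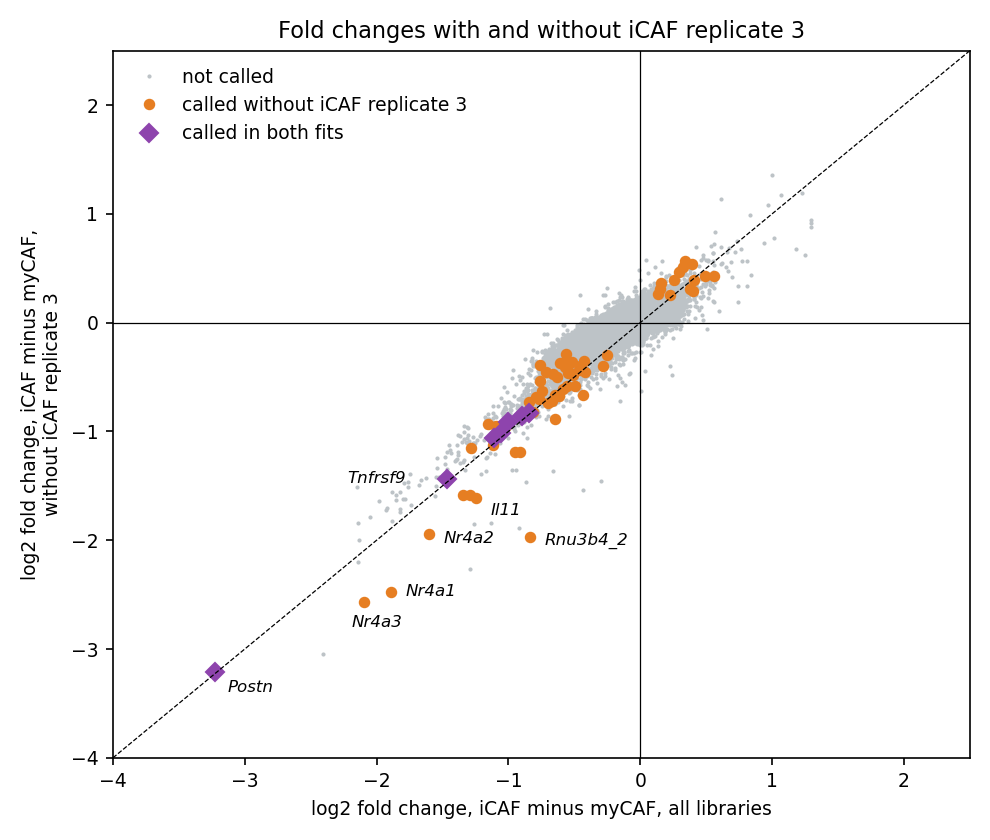
Log2 fold changes of all tested genes, iCAF minus myCAF, with all libraries on the horizontal axis and without iCAF replicate 3 on the vertical axis. Diamonds mark the 7 genes called in both fits, orange points the 63 called only without that library, and grey points the rest. The 7 lie close to the dashed line of equal values, while Nr4a1, Nr4a2 and Nr4a3 lie below it.

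The 7 genes called with all libraries encode a matrix protein, a receptor of the TNF family, a growth factor for blood vessels, a pair of arrestin-like regulators of nutrient uptake, an enzyme of cysteine synthesis and a microtubule-associated protein. Txnip (chr3:96557957-96561883, GRCm38) encodes an arrestin-like inhibitor of thioredoxin and of glucose uptake. It had 19.1, 26.1 and 19.9 TPM in iCAF libraries, 49.1, 49.9 and 43.9 TPM in myCAF libraries and 49.1, 41.3 and 43.1 TPM in qPSC libraries. Every iCAF value was lower than every myCAF and qPSC value, and Txnip was 2.15-fold lower in iCAF than in myCAF (log2 fold change -1.11 ± 0.13 SE, limma, adjusted p = 0.0472). Arrdc3 (chr13:80883384-80896042), a relative of Txnip that directs membrane proteins to degradation, had 5.14, 5.62 and 4.25 TPM in iCAF, 11.2, 11.4 and 10.3 TPM in myCAF and 10.8, 13.1 and 10.3 TPM in qPSC libraries. The pattern was that of Txnip, with a 2.00-fold lower level in iCAF and no overlap (log2 fold change -1.002 ± 0.13 SE, limma, adjusted p = 0.0472). Of the 7 tested genes of a list of Txnip, arrestin-like genes and Mlx transcription factors, these 2 were called, against 0.0609% of all tested genes. The others included Arrdc2, with 5.28, 11.3 and 6.10 TPM in iCAF and 12.9, 9.45 and 12.2 TPM in myCAF libraries, which overlapped, and Arrdc1, with 19.4, 19.7 and 19.4 TPM and 20.4, 21.4 and 19.8 TPM.

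Vegfa (chr17:46016993-46032369), the growth factor that draws blood vessels into tissue and a target of the hypoxia-inducible factors, had 60.6, 79.7 and 63.7 TPM in iCAF, 114, 142 and 125 TPM in myCAF and 122, 113 and 110.3 TPM in qPSC libraries. The iCAF values lay apart from the other 6, and the gene was 1.86-fold lower in iCAF than in myCAF (log2 fold change -0.90 ± 0.12 SE, limma, adjusted p = 0.0472). Cth (chr3:157894248-157925077), which encodes cystathionine gamma-lyase, an enzyme of cysteine synthesis, had 12.7, 16.6 and 13.3 TPM in iCAF, 29.0, 26.7 and 36.4 TPM in myCAF and 21.9, 19.0 and 20.7 TPM in qPSC libraries. Here the groups fell in 3 separate bands, iCAF lowest and myCAF highest, with a 2.08-fold lower level in iCAF than in myCAF (log2 fold change -1.06 ± 0.14 SE, limma, adjusted p = 0.0472). Tnfrsf9 (chr4:150914562-150946102), which encodes the receptor CD137 (4-1BB), best known from activated T cells, had 26.8, 43.0 and 32.3 TPM in iCAF, 101, 81.9 and 99.5 TPM in myCAF and 47.4, 38.1 and 58.0 TPM in qPSC libraries. It was 2.75-fold lower in iCAF than in myCAF, with myCAF above both other groups (log2 fold change -1.46 ± 0.19 SE, limma, adjusted p = 0.0472). Defining T cell markers were at or near 0 in the same libraries: Cd8a was listed at 0 TPM in all 9 and Cd3e in 8 of 9. Tigit, a lymphocyte receptor gene outside the marker list, passed the filter and was called lower in iCAF without iCAF replicate 3. Among the myCAF libraries Tnfrsf9 was lowest in replicate 2, as the fibroblast marker sum was. Among the qPSC libraries Tnfrsf9 was also lowest in replicate 2, but the marker sum was lowest in replicate 1 (716 TPM, against 790 TPM in replicate 2). The part of fibroblast RNA in the Tnfrsf9 level was not tested.

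Fam110c (chr12:31073861-31080251), whose product associates with centrosomes and microtubules, had 32.2, 39.3 and 34.6 TPM in iCAF, 66.8, 67.0 and 58.3 TPM in myCAF and 64.3, 74.9 and 68.8 TPM in qPSC libraries. The iCAF values lay below all others, a 1.79-fold lower level than in myCAF (log2 fold change -0.84 ± 0.10 SE, limma, adjusted p = 0.0472). Postn (chr3:54361109-54391037) encodes periostin, a matrix protein made by activated fibroblasts, and is a member of the fibroblast marker list. It had 0.0416, 0.153 and 0.0485 TPM in iCAF, 14.6, 4.64 and 10.8 TPM in myCAF and 1.24, 1.40 and 2.38 TPM in qPSC libraries, which corresponds to 5, 18 and 7 implied reads in iCAF, 1780, 501 and 1170 in myCAF and 140, 149 and 301 in qPSC libraries. The log2 fold change was -3.23 ± 0.33 (SE, limma, adjusted p = 0.0312) on the log2(TPM + 1) scale, which understates the change of such a low gene. Postn passed the filter on low values only through the myCAF libraries and so had to differ between the groups, and none of the other 6 passed in this way. Among the myCAF libraries Postn was lowest in replicate 2, which also had the lowest sum of fibroblast markers (745 TPM, against 1363 and 1123 TPM in replicates 1 and 3). The part of fibroblast RNA in this gene's difference was not tested.

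Without iCAF replicate 3, all 7 stayed called, with fold changes from -3.21 for Postn to -0.83 for Fam110c (limma, adjusted p from 0.015 to 0.032). They also stayed called without iCAF replicate 2 or myCAF replicate 2. None of the 7 was called by limma when iCAF replicate 1, myCAF replicate 1, myCAF replicate 3 or any single qPSC library was left out, although 896 to 2177 genes were lower in iCAF at an unadjusted p under 0.05 in those fits. The adjusted p of the 7 reached at most 0.238 in them, and their direction was the same in each.

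**Figure D2:**
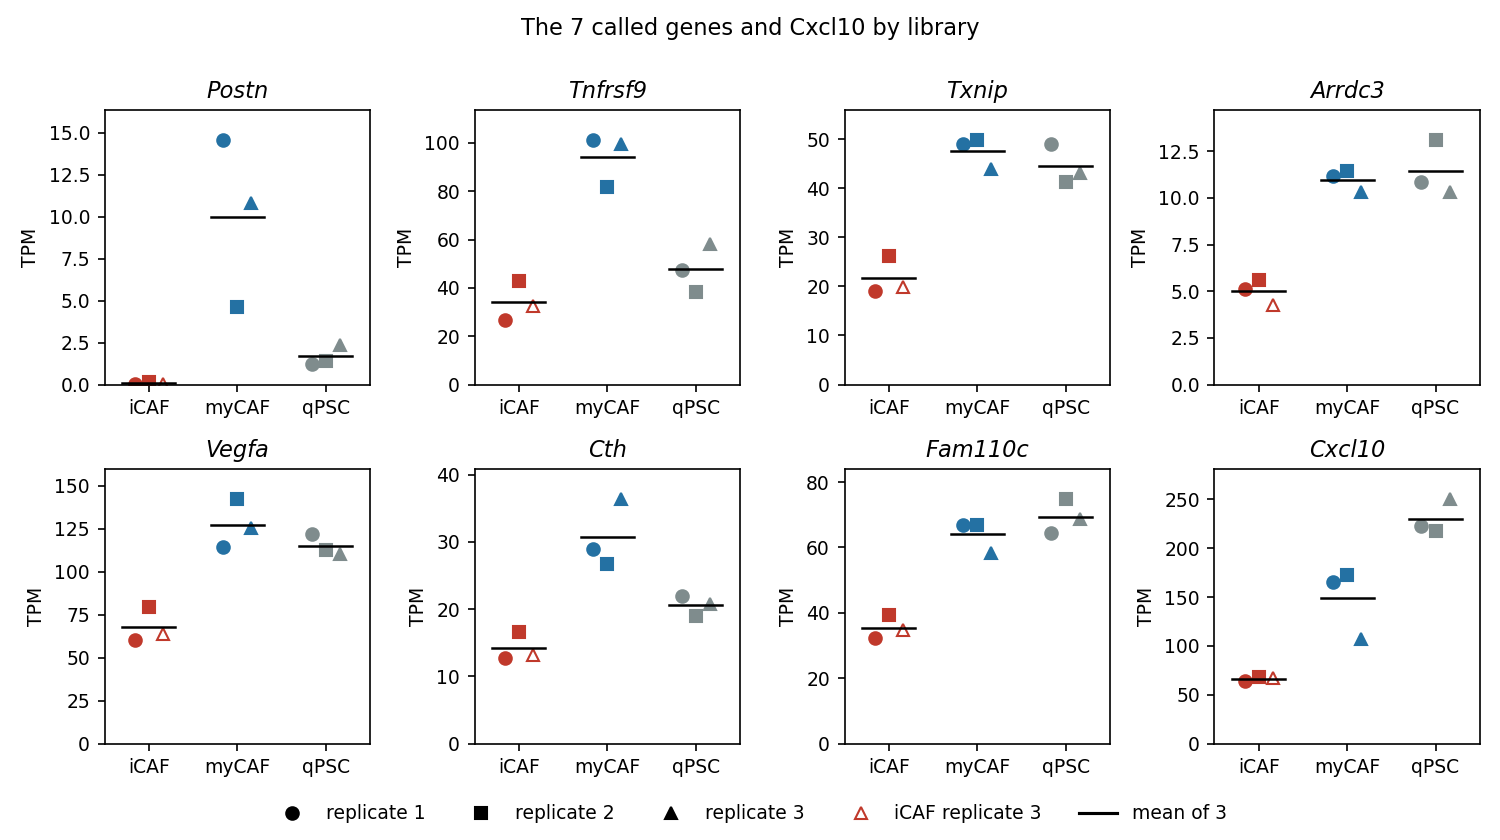
TPM of the 7 genes called with all libraries and of Cxcl10, 1 panel each, for the iCAF, myCAF and qPSC libraries. Points are libraries, with the replicate shown by shape and iCAF replicate 3 drawn open, and lines are means of 3. In all panels the 3 iCAF points lie below the 3 myCAF points, and for Txnip, Arrdc3, Vegfa and Fam110c the qPSC points lie near the myCAF points.

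Among the other genes called without iCAF replicate 3, Nr4a3 and Nr4a1 had the largest fold changes, and with Nr4a2 they encode the Nr4a family of orphan nuclear receptors. They are immediate early genes, switched on within minutes to hours by stimuli such as cyclic AMP, growth factors and stress, in part through the transcription factor CREB, which binds cyclic AMP response elements in their promoters. All 3 were called without iCAF replicate 3 and not with it. Their promoters are shown because the 3 genes moved together. RefSeq sequence (GRCm38.p6) from 250 bases before to 50 bases after the start site is given 5′ to 3′ on the gene's strand, with each half-site of the cyclic AMP response element (TGACG, searched on both strands, so that it also reads CGTCA) in capitals. The windows are chr15:101266596-101266895 (plus strand) for Nr4a1, chr2:57123954-57124253 (minus strand) for Nr4a2 and chr4:48045055-48045354 (plus strand) for Nr4a3.
Nr4a1: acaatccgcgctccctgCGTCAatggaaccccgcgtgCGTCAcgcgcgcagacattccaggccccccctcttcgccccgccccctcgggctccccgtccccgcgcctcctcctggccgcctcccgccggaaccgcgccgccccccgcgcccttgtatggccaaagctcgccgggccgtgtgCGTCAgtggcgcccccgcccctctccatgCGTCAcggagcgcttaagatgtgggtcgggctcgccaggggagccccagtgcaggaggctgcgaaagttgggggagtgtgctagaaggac
Nr4a2: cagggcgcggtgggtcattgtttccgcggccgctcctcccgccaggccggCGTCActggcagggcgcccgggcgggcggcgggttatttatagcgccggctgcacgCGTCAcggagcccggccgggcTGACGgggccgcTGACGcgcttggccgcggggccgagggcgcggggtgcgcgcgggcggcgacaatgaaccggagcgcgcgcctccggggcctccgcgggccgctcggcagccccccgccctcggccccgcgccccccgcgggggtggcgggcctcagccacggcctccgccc
Nr4a3: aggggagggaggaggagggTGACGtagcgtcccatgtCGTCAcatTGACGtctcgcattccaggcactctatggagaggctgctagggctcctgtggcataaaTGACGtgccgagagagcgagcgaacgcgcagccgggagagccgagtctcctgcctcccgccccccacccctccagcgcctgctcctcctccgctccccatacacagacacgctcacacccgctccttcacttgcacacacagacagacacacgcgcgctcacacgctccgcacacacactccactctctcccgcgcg
Each window holds 4 half-sites, which do not overlap each other. At least 1 was found in 20.8% of the 32851 RefSeq promoter windows, and at least 4 in 76 windows (0.231%). Of 24 windows found for 18 of the 21 immediate early genes listed, 16 (66.7%) held the half-site. These genes were picked for display with their values known, and other motifs were searched in the same windows but are not marked. A match is a description of the letters in the window and not evidence of binding.

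Nr4a1 had 34.3, 36.2 and 121 TPM in iCAF, 169, 251 and 189.8 TPM in myCAF and 276, 186 and 263 TPM in qPSC libraries. Nr4a2 had 11.9, 12.8 and 26.1 TPM in iCAF, 46.5, 56.4 and 48.7 TPM in myCAF and 58.5, 42.8 and 56.5 TPM in qPSC libraries. Nr4a3 had 1.72, 1.87 and 6.52 TPM in iCAF, 11.5, 19.5 and 16.8 TPM in myCAF and 20.0, 14.1 and 20.0 TPM in qPSC libraries. For each of the 3 genes, iCAF replicates 1 and 2 were close together, iCAF replicate 3 lay above them, and all 3 iCAF values were below every myCAF and qPSC value. Without iCAF replicate 3, Nr4a1 was 5.56-fold lower in iCAF than in myCAF (log2 fold change -2.48 ± 0.19 SE, limma, adjusted p = 0.00222), Nr4a2 3.85-fold lower (adjusted p = 0.00157) and Nr4a3 5.93-fold lower (adjusted p = 0.00252). With all libraries the fold changes were -1.89 for Nr4a1, -1.60 for Nr4a2 and -2.09 for Nr4a3 (limma, adjusted p = 0.113, 0.0827 and 0.0827). With iCAF replicate 3 out, each of the 3 stayed called whichever of the other 8 libraries was left out as well (limma, adjusted p at most 0.0346).

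Usp2, Sik1, Per1 and Egr3 were also called without iCAF replicate 3 and not with it. Usp2, a deubiquitinase whose transcript follows the circadian clock, had 0.811, 1.17 and 2.66 TPM in iCAF, 4.63, 5.22 and 5.02 TPM in myCAF and 5.77, 4.48 and 6.83 TPM in qPSC libraries, 3.003-fold lower in iCAF than in myCAF without iCAF replicate 3 (limma, adjusted p = 0.00657, and 0.0897 with it). Sik1, a kinase induced by cyclic AMP that restrains CREB coactivators, had 12.4, 13.2 and 21.7 TPM in iCAF, 27.1, 32.5 and 32.2 TPM in myCAF and 33.0, 25.6 and 41.3 TPM in qPSC libraries and was 2.28-fold lower without iCAF replicate 3 (limma, adjusted p = 0.032, and 0.121 with it). In both genes iCAF replicate 3 lay between the other iCAF libraries and the myCAF libraries. Per1, a repressor of the circadian clock, had 10.4, 10.4 and 10.4 TPM in iCAF, 16.8, 22.9 and 18.0 TPM in myCAF and 21.95, 19.2 and 19.7 TPM in qPSC libraries, so that the 3 iCAF libraries, replicate 3 included, were almost equal (limma, adjusted p = 0.032 without and 0.0709 with iCAF replicate 3). Egr3, a zinc finger factor of the early growth response family, had 20.9, 19.8 and 22.9 TPM in iCAF, 36.5, 31.6 and 34.8 TPM in myCAF and 39.5, 40.4 and 31.3 TPM in qPSC libraries (by limma, adjusted p = 0.0341 without and 0.0827 with iCAF replicate 3). Neither gene's iCAF values reached the lowest myCAF value. Nfil3 and Csrnp1, further transcription factors chosen after their values were seen, were 1.5-fold and 1.85-fold lower without iCAF replicate 3 (limma, adjusted p = 0.00538 and 0.032, and 0.0897 and 0.183 with it).

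The immediate early genes did not move as 1 group. Of the 21 tested, Nr4a1, Nr4a2, Nr4a3 and Egr3 were called lower without iCAF replicate 3, against 0.487% of all tested genes, and 0 with it. The list's median log2 fold change was -0.25 with all libraries and -0.30 without iCAF replicate 3, and 7 genes had all iCAF libraries below all myCAF libraries, against 18.2% of all tested genes. Fos had 92.1, 166 and 116 TPM in iCAF, 106, 66.0 and 131 TPM in myCAF and 73.9, 75.6 and 69.1 TPM in qPSC libraries. Dusp1 had 74.9, 118 and 75.0 TPM in iCAF, 71.0, 50.5 and 89.5 TPM in myCAF and 57.5, 61.1 and 71.3 TPM in qPSC libraries. For both genes the iCAF and myCAF values overlapped. Genes of this list, the called ones included, are also known to be induced when cells are handled or dissociated. Of 16 circadian clock genes tested, Per1, Bhlhe40 and Usp2 were called lower without iCAF replicate 3, against 0.487% of all tested genes. Dbp, a gene driven by the clock, had 5.802, 6.55 and 5.54 TPM in iCAF and 5.76, 4.20 and 5.15 TPM in myCAF libraries. The list median was -0.37 with all libraries and -0.12 without iCAF replicate 3.

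**Figure D3:**
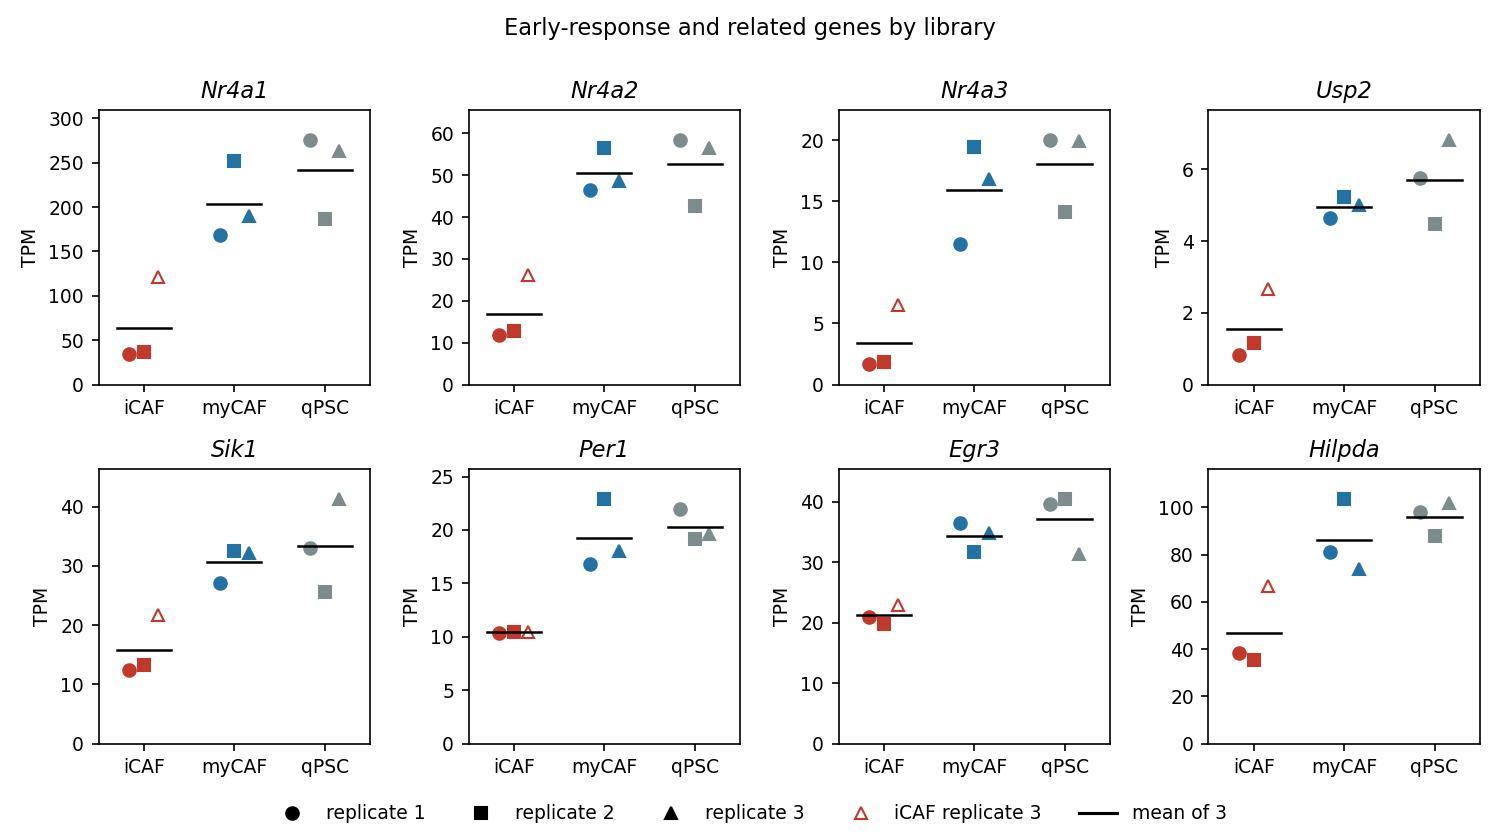
TPM of Nr4a1, Nr4a2, Nr4a3, Usp2, Sik1, Per1, Egr3 and Hilpda in the iCAF, myCAF and qPSC libraries, 1 panel each. Points are libraries (iCAF replicate 3 drawn open) and lines are means of 3. In each panel the iCAF points lie below the myCAF points, and in all but Per1 iCAF replicate 3 is the highest of the iCAF points, by little in Egr3.

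Most genes that cells switch on at low oxygen had iCAF levels below their myCAF levels, though few passed the test. Hypoxia-inducible factors (HIF) are stabilised when oxygen falls and activate genes of blood vessel growth, glucose uptake and mitophagy. Of 22 HIF targets tested outside glycolysis, Vegfa was called with all libraries, and Vegfa and Ddit4 without iCAF replicate 3. No member was called higher, and 0.0609% and 0.487% of all tested genes were called lower in these 2 fits. In 17 of the 22 all iCAF libraries lay below all myCAF libraries, against 18.2% of all tested genes, and the median log2 fold change was -0.60 with all libraries and -0.57 without iCAF replicate 3. Ddit4, which encodes an inhibitor of the growth kinase complex mTORC1, had 76.2, 92.2 and 94.0 TPM in iCAF, 126, 149 and 128 TPM in myCAF and 128, 129.6 and 139 TPM in qPSC libraries, 1.59-fold lower in iCAF than in myCAF without iCAF replicate 3 (limma, adjusted p = 0.032, and 0.0827 with it). The iCAF values did not reach the lowest myCAF value.

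Ndrg1, a stress-responsive gene widely used as a marker of hypoxia, had 138, 219 and 172 TPM in iCAF, 318, 311 and 368 TPM in myCAF and 227, 192 and 249 TPM in the qPSC group and missed the threshold (log2 fold change -0.93 ± 0.16 SE, limma, adjusted p = 0.0827, and 0.0604 without iCAF replicate 3), although it passed without iCAF replicate 2 (0.0241) or myCAF replicate 2 (0.0425). Ero1l, an oxidase of the endoplasmic reticulum, had 96.8, 172 and 97.8 TPM in iCAF, 260.1, 253 and 359 TPM in myCAF and 158, 121 and 157 TPM in qPSC libraries. Bnip3, which targets mitochondria for removal, had 158, 302 and 267 TPM in iCAF, 396, 418 and 463 TPM in myCAF and 254, 191 and 296 TPM in qPSC libraries. For all 3 of these genes the iCAF libraries differed widely from each other, with replicate 1 lowest, and lay below the myCAF libraries. Against this pattern, Angptl4, a regulator of lipoprotein lipase, had 61.1, 78.1 and 47.3 TPM in iCAF and 65.0, 56.6 and 55.0 TPM in myCAF libraries, and Egln3, a HIF prolyl hydroxylase, had 176, 223 and 154 TPM and 175, 198 and 214 TPM, both with overlap. Hilpda, a lipid droplet protein also induced by hypoxia but outside the list, had 38.4, 35.2 and 66.6 TPM in iCAF, 80.9, 104 and 73.9 TPM in myCAF and 97.9, 87.8 and 102 TPM in qPSC libraries. It was 2.28-fold lower without iCAF replicate 3 (log2 fold change -1.19 ± 0.13 SE, limma, adjusted p = 0.0121) and did not pass with it (adjusted p = 0.127).

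Glycolysis genes leaned the same way without a call. None of the 19 tested passed limma with or without iCAF replicate 3, while 15 of the 19 had a lower level in iCAF at an unadjusted p under 0.05 without it, against 13.8% of all tested genes. All iCAF libraries lay below all myCAF libraries for 16 of the 19, against 18.2% of all tested genes, and the list median was -0.34 with all libraries and -0.26 without iCAF replicate 3. Slc2a1, the glucose transporter GLUT1, had 152, 219.7 and 172 TPM in iCAF, 266, 273 and 303 TPM in myCAF and 226, 191 and 236 TPM in qPSC libraries (by limma, adjusted p = 0.109, and 0.0842 without iCAF replicate 3). Pgk1, the first enzyme of glycolysis to yield ATP, had 2082, 2803 and 2736 TPM in iCAF, 3560.5, 3616 and 3897 TPM in myCAF and 2649, 2225 and 2938 TPM in qPSC libraries (by limma, adjusted p = 0.125, and 0.0809 without iCAF replicate 3). In each gene iCAF replicate 1 was the lowest of the 6, and the qPSC range reached the iCAF range. Slc16a1, a lactate exporter, had 262, 277 and 238 TPM in iCAF and 256, 261 and 277 TPM in myCAF libraries, with overlap.

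The HIF and glycolysis lists rested on libraries that also differed in fibroblast markers, whose sum was 411 to 705 TPM in iCAF and 745 to 1363 TPM in myCAF libraries. Whether the marker transcripts came from fibroblasts or from the tumour cells was not tested. In myCAF replicate 2, with a fibroblast marker sum of 745 TPM, the mean log2(TPM + 1) of the HIF targets was 5.89, and in replicates 1 and 3, with sums of 1363 and 1123 TPM, it was 6.00 and 6.08. The iCAF libraries had 5.14, 5.69 and 5.27, and the qPSC libraries, with marker sums of 716 to 868 TPM, had 5.63, 5.46 and 5.71. The myCAF libraries were thus the highest of the 3 groups, and iCAF overlapped qPSC. The part of fibroblast RNA in these levels was not tested.

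**Figure D4:**
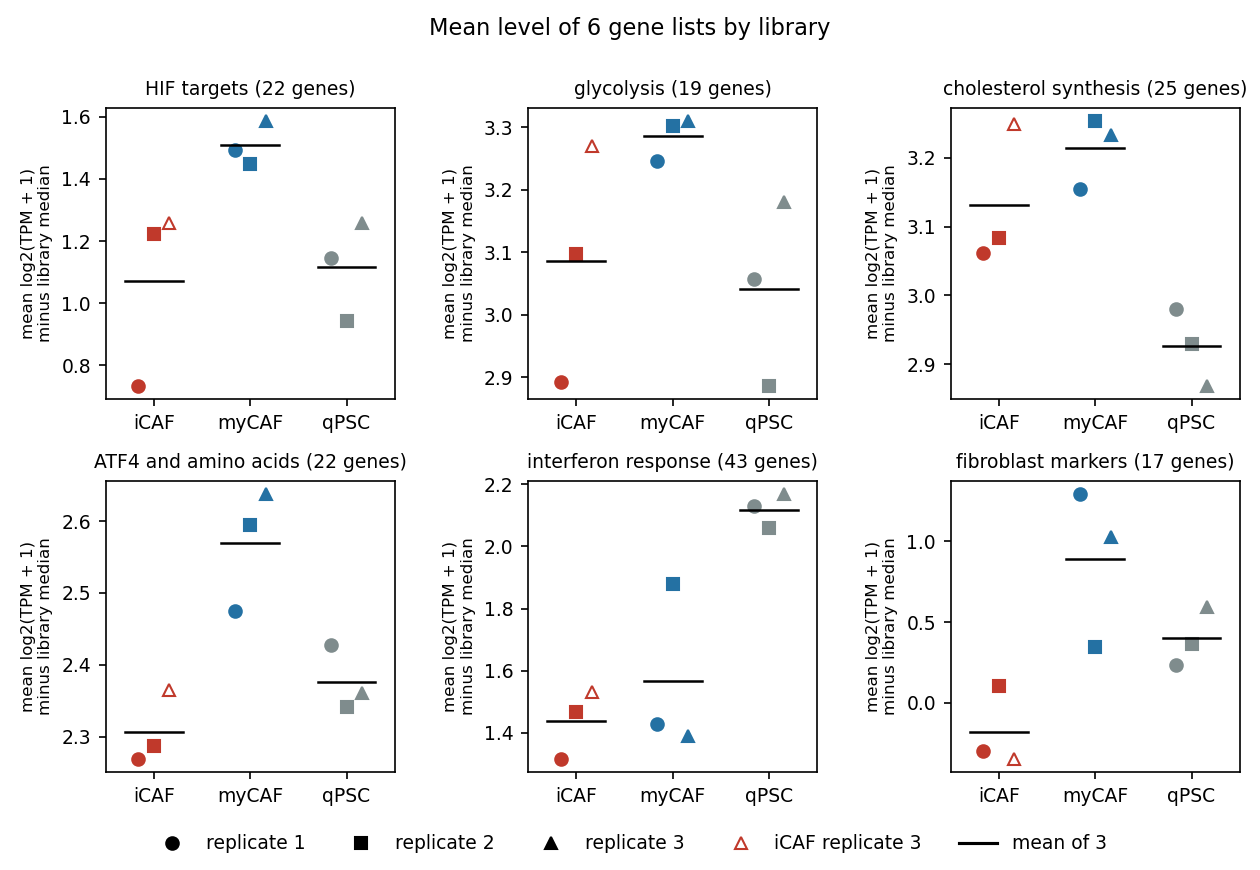
Mean log2(TPM + 1) of the tested members of 6 gene lists minus the library's median over all tested genes, for the iCAF, myCAF and qPSC libraries. Points are libraries (iCAF replicate 3 drawn open), lines are means of 3, and the vertical axes do not start at 0. For HIF targets, ATF4 and amino acid genes and fibroblast markers all iCAF points lie below all myCAF points. For glycolysis, cholesterol synthesis and the interferon response they overlap on this scale, and for the interferon response the qPSC points lie above all the others.

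The list with most calls was that of the amino acid response, with 5 of 22 called lower without iCAF replicate 3, against 0.487% of all tested genes. ATF4 is a transcription factor that is translated when amino acids run short or the endoplasmic reticulum is stressed, and it activates genes of amino acid synthesis and uptake through elements that resemble TGATGNAA. Of 22 tested genes of this programme, Cth was called with all libraries. Without iCAF replicate 3, Cth, Trib3, Pycr1, Chac1 and Vldlr were called, all of them lower, and all 22 had a negative log2 fold change, against 57.9% of all genes. In 16 of the 22 all iCAF libraries lay below all myCAF libraries, against 18.2% of all tested genes, and the median was -0.39 with all libraries and -0.28 without iCAF replicate 3. The promoters of Trib3, Pycr1 and Chac1 are shown because these called members hold the letters of that element (TGATGNAA, where N is any base, on either strand) within the RefSeq window (GRCm38.p6), with the element in capitals. They lie at chr2:152344011-152344310 (minus strand) for Trib3, chr11:120643699-120643998 (minus strand) for Pycr1 and chr2:119350992-119351291 (plus strand) for Chac1, and are given 5′ to 3′ on the gene's strand.
Trib3: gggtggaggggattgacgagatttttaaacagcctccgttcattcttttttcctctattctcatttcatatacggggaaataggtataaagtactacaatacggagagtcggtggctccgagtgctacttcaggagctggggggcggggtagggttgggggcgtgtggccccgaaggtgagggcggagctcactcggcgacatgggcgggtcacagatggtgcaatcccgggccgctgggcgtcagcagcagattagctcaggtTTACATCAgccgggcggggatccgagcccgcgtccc
Pycr1: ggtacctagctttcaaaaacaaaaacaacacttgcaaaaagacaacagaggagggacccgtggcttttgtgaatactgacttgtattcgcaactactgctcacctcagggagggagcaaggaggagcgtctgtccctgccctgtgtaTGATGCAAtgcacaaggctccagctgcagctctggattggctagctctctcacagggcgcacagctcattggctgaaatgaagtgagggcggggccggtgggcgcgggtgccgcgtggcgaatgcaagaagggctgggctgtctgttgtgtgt
Chac1: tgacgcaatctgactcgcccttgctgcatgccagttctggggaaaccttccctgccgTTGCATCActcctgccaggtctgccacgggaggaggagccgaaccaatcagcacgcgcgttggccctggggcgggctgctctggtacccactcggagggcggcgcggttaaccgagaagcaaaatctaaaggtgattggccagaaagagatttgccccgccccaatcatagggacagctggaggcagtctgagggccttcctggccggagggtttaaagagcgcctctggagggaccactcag
Each window holds 1 match, and none overlaps a TGACG half-site. The element was found in 3.97% of the 32851 windows, and in 6 of the 27 windows (22.2%) of the 21 list members that had one. These 3 genes were picked for display with their values and matches known. The windows of the called members Cth and Vldlr are not shown, so the 3 do not stand for all called members.

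Trib3, a pseudokinase that feeds back on ATF4, had 53.5, 63.3 and 60.2 TPM in iCAF, 80.5, 97.6 and 102 TPM in myCAF and 83.1, 79.1 and 77.0 TPM in qPSC libraries, 1.58-fold lower in iCAF than in myCAF without iCAF replicate 3 (limma, adjusted p = 0.0346, and 0.0827 with it). Pycr1, the mitochondrial enzyme that makes proline, had 5.13, 5.47 and 3.63 TPM in iCAF, 11.6, 8.66 and 13.7 TPM in myCAF and 6.31, 5.94 and 6.57 TPM in qPSC libraries, 1.93-fold lower (limma, adjusted p = 0.036, and 0.0827). Chac1, which breaks down glutathione, had 109, 94.2 and 106 TPM in iCAF, 154, 171 and 141 TPM in myCAF and 172, 204 and 168 TPM in qPSC libraries, 1.52-fold lower (limma, adjusted p = 0.0477, and 0.0863). In none of the 3 did an iCAF value reach the lowest myCAF value. The qPSC libraries differed between the genes: for Pycr1 they lay near the iCAF level, whereas for Chac1 they lay at or above the myCAF level. Atf4 itself had 686, 757 and 720.2 TPM in iCAF, 888, 862 and 904 TPM in myCAF and 802, 788 and 739 TPM in qPSC libraries (by limma, adjusted p = 0.112 with all libraries and 0.0581 without iCAF replicate 3), and Asns, which makes asparagine, had 284, 277 and 263 TPM in iCAF, 329, 377 and 383 TPM in myCAF and 308, 265 and 267 TPM in qPSC libraries (adjusted p = 0.112 and 0.0818). Neither passed, and Phgdh, the first enzyme of serine synthesis, overlapped with 800.1, 737 and 789 TPM in iCAF and 746, 823 and 771 TPM in myCAF libraries. Gpt2 and Pck2, mitochondrial enzymes of alanine and phosphoenolpyruvate metabolism chosen after their values were seen, were 1.39-fold and 1.35-fold lower without iCAF replicate 3 (limma, adjusted p = 0.0285 and 0.0378, and 0.112 and 0.0863 with it).

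Cholesterol synthesis genes had fold changes slightly below the median of all genes, with 1 call. Of 25 tested, Pmvk, which phosphorylates mevalonate phosphate, was called without iCAF replicate 3, against 0.487% of all tested genes, and 0 with it. Of the 25, 17 had all iCAF below all myCAF libraries, against 18.2% of all tested genes. Pmvk had 95.5, 111 and 131 TPM in iCAF, 141, 129 and 138 TPM in myCAF and 92.7, 88.2 and 87.8 TPM in qPSC libraries. The highest iCAF value, in replicate 3, exceeded the lowest myCAF value, and without it Pmvk was 1.32-fold lower in iCAF (limma, adjusted p = 0.0473, against 0.245 with all libraries). Hmgcs1, which makes the precursor of mevalonate, had 408, 495 and 444 TPM in iCAF, 633, 595 and 646 TPM in myCAF and 516, 506 and 447 TPM in qPSC libraries, with no overlap of iCAF and myCAF, and did not pass (limma, adjusted p = 0.0897, and 0.0581 without iCAF replicate 3). It passed without iCAF replicate 2 or myCAF replicate 2 (limma, adjusted p = 0.0328 and 0.0485). Insig2, a brake on this pathway chosen after its values were seen, was 1.32-fold lower without iCAF replicate 3 (limma, adjusted p = 0.0346, and 0.0931 with it). The list median was -0.28 with all libraries and -0.17 without iCAF replicate 3. Of 15 fatty acid synthesis genes, 0 were called by limma in either fit, 5 had an unadjusted p under 0.05 in the direction of lower levels without iCAF replicate 3, against 13.8% of all tested genes, and the median was -0.32 with all libraries and -0.06 without it.

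Most interferon-stimulated genes overlapped between iCAF and myCAF co-cultures, and as a list both groups lay below the qPSC libraries. Of 43 tested, Cxcl10 was called without iCAF replicate 3, against 0.487% of all tested genes, and 0 with it. Of the 43, 13 had all iCAF below all myCAF libraries, against 18.2% of all tested genes. The list median was -0.33 with all libraries and -0.15 without iCAF replicate 3. Cxcl10, a chemokine that attracts T cells through CXCR3, had 64.1, 67.9 and 67.2 TPM in iCAF, 165, 173 and 107 TPM in myCAF and 223, 217 and 251 TPM in qPSC libraries. The 3 iCAF values were nearly equal and below the others, and Cxcl10 was 2.19-fold lower in iCAF than in myCAF without iCAF replicate 3 (log2 fold change -1.13 ± 0.17 SE, limma, adjusted p = 0.0346, and 0.0571 with it). Ifit3, an antiviral protein, had 265, 326 and 238 TPM in iCAF, 311, 479 and 291 TPM in myCAF and 734, 694 and 741 TPM in qPSC libraries, with myCAF replicate 2 well above the other myCAF libraries. Relative to the library median, the list lay at 1.32 to 1.53 log2 units in iCAF, 1.39 to 1.88 in myCAF and 2.06 to 2.17 in qPSC libraries, so the iCAF and myCAF ranges overlapped and the qPSC range did not reach either. None of the 20 genes of MHC class I and peptide loading was called by limma in either fit, none had an unadjusted p under 0.05 without iCAF replicate 3, and their median was -0.01 with all libraries and 0.01 without it. Ifitm1, an interferon-induced membrane protein chosen after its values were seen, was 1.37-fold lower without iCAF replicate 3 (limma, adjusted p = 0.0285, and 0.0827 with it). Cd274, which encodes the checkpoint ligand PD-L1, had 9.41, 11.6 and 8.68 TPM in iCAF, 15.4, 15.6 and 11.0 TPM in myCAF and 20.4, 18.2 and 17.8 TPM in the qPSC group and missed the threshold (limma, adjusted p = 0.22, and 0.21 without iCAF replicate 3).

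No cytokine gene that marks inflammatory fibroblasts was called higher in the tumour cells of iCAF co-cultures, and 2 cytokine genes, Il6 and Il11, were called lower without iCAF replicate 3. Il6, a cytokine that signals through STAT3, had 0.477, 0.396 and 1.34 TPM in iCAF, 5.61, 2.82 and 2.15 TPM in myCAF and 2.92, 3.33 and 2.61 TPM in qPSC libraries, or 16, 13 and 54 implied reads in iCAF against 191, 85 and 65 in myCAF libraries. Il11, a cytokine of the same family, had 1.04, 2.13 and 4.40 TPM in iCAF, 5.58, 9.68 and 5.59 TPM in myCAF and 12.6, 9.16 and 8.89 TPM in qPSC libraries. Il6 reached 1 TPM in iCAF only in replicate 3, so without that library it passed the filter only through myCAF. In both Il6 and Il11 iCAF replicate 3 lay closest to the myCAF libraries. Without it Il6 was 2.995-fold and Il11 3.06-fold lower in iCAF than in myCAF (limma, adjusted p = 0.0443 and 0.036), and with it neither passed (adjusted p = 0.109 and 0.156). Cxcl10, Il6 and Il11 were the called members among 22 tested chemokine and cytokine genes without iCAF replicate 3, against 0.487% of all tested genes called lower. The median of the 22 was -0.23 with all libraries and -0.18 without iCAF replicate 3. Of 12 tested genes that mark inflammatory fibroblasts, Il6 was called without iCAF replicate 3, against 0.487% of all tested genes. The median of the 12 was -0.98 with all libraries and -0.79 without iCAF replicate 3. Cxcl1, a chemokine for neutrophils in this list, had 6.10, 16.1 and 5.14 TPM in iCAF, 38.9, 11.5 and 15.9 TPM in myCAF and 13.7, 15.2 and 16.1 TPM in qPSC libraries, with overlap (limma, adjusted p = 0.248, and 0.324 without iCAF replicate 3). In contrast, Cxcl5, another neutrophil chemokine, had 573, 589 and 568 TPM in iCAF, 441, 516 and 395 TPM in myCAF and 657, 712 and 586 TPM in qPSC libraries, with iCAF above myCAF in every pair of libraries, and did not pass (limma, adjusted p = 0.175 with all libraries and 0.122 without iCAF replicate 3). The mean log2(TPM + 1) of the list was 3.79, 4.08 and 3.77 in iCAF, 4.996, 4.34 and 4.42 in myCAF and 4.58, 4.775 and 4.62 in qPSC libraries. The fibroblast marker sums were 411 to 705 TPM in iCAF, 745 to 1363 TPM in myCAF and 716 to 868 TPM in qPSC libraries, also lowest in iCAF. Pdgfra belongs to both lists, so the list mean and the marker sum are not independent. The part of fibroblast RNA in the list mean was not tested.

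Genes that respond to IL-17 were of interest because the iCAF fibroblasts had been primed with Tc17 medium. Of 18 tested, Il6, with the filter limit given above, and Cebpd were called lower without iCAF replicate 3, against 0.487% of all tested genes, and 0 with it. The median was -0.14 with all libraries and -0.15 without iCAF replicate 3. Cebpd, a transcription factor of the acute phase, had 21.0, 26.1 and 39.0 TPM in iCAF, 42.5, 34.6 and 36.8 TPM in myCAF and 55.4, 57.1 and 59.5 TPM in qPSC libraries, with iCAF replicate 3 inside the myCAF range (limma, adjusted p = 0.0346 without and 0.277 with it). Lcn2, an iron-binding protein that IL-17 induces in epithelial cells, had 60.0, 78.7 and 60.0 TPM in iCAF, 56.5, 56.1 and 49.1 TPM in myCAF and 96.0, 102 and 93.4 TPM in qPSC libraries (by limma, adjusted p = 0.261, and 0.138 without iCAF replicate 3). Nfkbiz, a cofactor of NF-κB needed for many IL-17 targets, had 55.1, 66.3 and 50.6 TPM in iCAF, 82.2, 81.2 and 79.6 TPM in myCAF and 101, 103 and 89.9 TPM in qPSC libraries (by limma, adjusted p = 0.109, and 0.0627 without iCAF replicate 3). Neither Lcn2 nor Nfkbiz passed with or without iCAF replicate 3, Nfkbiz passed without iCAF replicate 2 (limma, adjusted p = 0.0303), and their fold changes had opposite signs. Among 17 STAT3 and acute-phase genes Cebpd was called without iCAF replicate 3, against 0.487% of all tested genes. The list median was -0.35 with all libraries and -0.28 without iCAF replicate 3. None of 18 NF-κB response genes was called by limma in either fit, 8 were lower and 1 higher at an unadjusted p under 0.05 without iCAF replicate 3 (13.8% and 6.27% of all tested genes), and the median was -0.33 with all libraries and -0.22 without it.

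The TGF-β and matrix genes were examined because the myCAF fibroblasts had been primed with TGF-β1. Of 24 TGF-β targets tested, Bhlhe40, a clock-linked repressor, was called without iCAF replicate 3, against 0.487% of all tested genes, and 0 with it. It had 69.5, 72.6 and 74.1 TPM in iCAF, 98.1, 118 and 104 TPM in myCAF and 118, 104 and 96.0 TPM in qPSC libraries, 1.49-fold lower in iCAF than in myCAF (limma, adjusted p = 0.0413, and 0.0827 with iCAF replicate 3), so the qPSC libraries resembled the myCAF libraries. In 12 of the 24 all iCAF lay below all myCAF libraries, against 18.2% of all tested genes, and the median was -0.38 with all libraries and -0.26 without iCAF replicate 3. Smad7, the inhibitory Smad that TGF-β induces, had 7.01, 9.51 and 5.17 TPM in iCAF and 9.55, 6.54 and 9.20 TPM in myCAF libraries, with overlap. Tgfbi, a matrix protein named for its induction by TGF-β, had 10.9, 17.7 and 10.3 TPM in iCAF, 55.4, 23.4 and 45.3 TPM in myCAF and 26.2, 29.1 and 31.9 TPM in the qPSC group and missed the threshold (limma, adjusted p = 0.0905 with all libraries and 0.0809 without iCAF replicate 3). Among the myCAF libraries Tgfbi was lowest in replicate 2, as the fibroblast markers were.

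Of the 17 fibroblast markers tested, Postn was the called gene in both fits. Of all tested genes, 0.0609% were called lower with all libraries and 0.487% without iCAF replicate 3. Postn passed the filter only through myCAF and so had to differ between the groups. Of the 17, 16 had a negative log2 fold change without iCAF replicate 3, against 57.9% of all tested genes. Their median was -1.33 with all libraries and -0.95 without it. Col1a1, a chain of type I collagen, had 47.2, 72.9 and 28.8 TPM in iCAF, 155, 68.2 and 158 TPM in myCAF and 54.0, 57.9 and 69.9 TPM in qPSC libraries, with iCAF replicate 2 above myCAF replicate 2 (limma, adjusted p = 0.16, and 0.16 without iCAF replicate 3). Thy1, the CD90 antigen of the stained fibroblasts, had 2.32, 3.46 and 2.05 TPM in iCAF, 9.04, 3.28 and 8.23 TPM in myCAF and 2.81, 4.04 and 5.40 TPM in qPSC libraries, again with overlap (limma, adjusted p = 0.19, and 0.195 without iCAF replicate 3). Both were called when myCAF replicate 2 was left out (limma, adjusted p = 0.0341 for Col1a1 and 0.0267 for Thy1), and Col1a1 also without iCAF replicate 2 (adjusted p = 0.0488). Pdgfrb, a receptor of mesenchymal cells, had 32.2, 29.8 and 15.2 TPM in iCAF and 27.6, 26.0 and 27.0 TPM in myCAF libraries, and it was the marker without a negative fold change once iCAF replicate 3 was left out. Of 6 contractile genes tested out of 12 listed, Myl9, a myosin light chain, was called without iCAF replicate 3, with 0.249, 0.510 and 0.207 TPM in iCAF, 1.66, 1.73 and 1.59 TPM in myCAF and 1.46, 0.915 and 1.48 TPM in qPSC libraries (by limma, adjusted p = 0.0455, and 0.0571 with all libraries). Myl9 passed the filter only through myCAF, and 0.487% of all tested genes were called lower without iCAF replicate 3. Acta2, the smooth muscle actin that defines myofibroblasts, had 3.13, 3.70 and 2.03 TPM in iCAF, 4.96, 5.34 and 7.75 TPM in myCAF and 2.34, 2.25 and 3.32 TPM in the qPSC group and missed the threshold (limma, adjusted p = 0.143, and 0.116 without iCAF replicate 3).

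Growth factor feedback genes and a death gene were among the remaining calls. Spry2, an inhibitor of receptor tyrosine kinase signalling, had 27.7, 29.5 and 24.5 TPM in iCAF, 49.0, 50.5 and 42.0 TPM in myCAF and 47.3, 52.3 and 45.8 TPM in qPSC libraries, and Dusp4, a phosphatase that switches off MAP kinases, had 61.3, 63.5 and 37.4 TPM in iCAF, 78.9, 77.4 and 86.1 TPM in myCAF and 89.8, 81.6 and 82.2 TPM in qPSC libraries. For both, the iCAF libraries lay below the other 6. Spry2 was 1.62-fold and Dusp4 1.29-fold lower without iCAF replicate 3 (limma, adjusted p = 0.0198 and 0.0455, and 0.0543 and 0.173 with it). They were 2 of 17 tested MAPK response genes, against 0.487% of all tested genes called lower. The median of the 17 was -0.35 with all libraries and -0.16 without iCAF replicate 3. Bcl2l11, which encodes the cell death protein BIM, had 10.9, 12.4 and 6.39 TPM in iCAF, 15.8, 16.3 and 17.0 TPM in myCAF and 15.8, 15.2 and 15.4 TPM in qPSC libraries (by limma, adjusted p = 0.0346 without and 0.156 with iCAF replicate 3). It was the called member of 19 p53 and apoptosis genes without iCAF replicate 3, against 0.487% of all tested genes. Their median was -0.13 with all libraries and -0.004 without iCAF replicate 3. Among called genes outside the lists, chosen after their values were seen, Ackr3, a scavenger receptor for CXCL12, was 1.67-fold lower and Itga6, the laminin receptor subunit, 1.90-fold lower without iCAF replicate 3 (limma, adjusted p = 0.0346 and 0.0378, and 0.0827 and 0.0863 with it).

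The 14 genes higher in iCAF than in myCAF libraries without iCAF replicate 3 had small changes and belonged to no list. Inhbb, the βB subunit of activin B, had 68.7, 66.7 and 42.3 TPM in iCAF, 43.8, 48.3 and 44.4 TPM in myCAF and 65.1, 71.0 and 71.5 TPM in qPSC libraries. Its first 2 iCAF values matched the qPSC level and lay above myCAF, whereas iCAF replicate 3 lay below the lowest myCAF value. Inhbb was 1.48-fold higher without iCAF replicate 3 (log2 fold change 0.56 ± 0.06 SE, limma, adjusted p = 0.0121, and 0.291 with it). Sod3, the extracellular superoxide dismutase, had 144, 162 and 106 TPM in iCAF, 109, 115 and 109 TPM in myCAF and 162, 156 and 154 TPM in qPSC libraries and was 1.38-fold higher (limma, adjusted p = 0.0181, and 0.283 with it), with iCAF replicate 3 again below myCAF. Gpx1, which reduces hydrogen peroxide with glutathione, had 226, 229 and 261 TPM in iCAF, 182, 192 and 177 TPM in myCAF and 234, 234 and 230.1 TPM in qPSC libraries, 1.24-fold higher (limma, adjusted p = 0.032, and 0.0959). Here all 3 iCAF libraries lay above all myCAF libraries. Cbr3, a carbonyl reductase, had 67.1, 59.9 and 72.6 TPM in iCAF, 49.6, 46.8 and 44.4 TPM in myCAF and 61.3, 61.8 and 58.2 TPM in qPSC libraries, and Mpc2, a subunit of the mitochondrial pyruvate carrier, had 13.3, 13.8 and 18.3 TPM in iCAF, 9.09, 9.77 and 10.6 TPM in myCAF and 13.8, 13.8 and 13.3 TPM in qPSC libraries (by limma, adjusted p = 0.0346 and 0.0473 without iCAF replicate 3, and 0.0863 and 0.121 with it). In both, all 3 iCAF values exceeded all myCAF values. The other 9 were Eva1b, Mmd, Paqr7, Phldb3, Pop1, Ranbp1, Slc25a29, Slc48a1 and Tspan4.

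Set against the qPSC libraries, most called genes had a qPSC mean nearer to one side. Of the 56 genes lower in iCAF without iCAF replicate 3, 42 (75.0%) had a qPSC mean nearer to myCAF than to iCAF replicates 1 and 2 on the log2(TPM + 1) scale, and 14 nearer to iCAF. Of the 14 higher genes, 2 (14.3%) were nearer to myCAF and 12 to iCAF. Over all tested genes the share nearer to myCAF was 55.2%. Nr4a1, Txnip and Fam110c are examples of the first kind, Pycr1 and Pmvk of the second, and Inhbb, Sod3, Gpx1 and Cbr3 of the third.

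**Figure D5:**
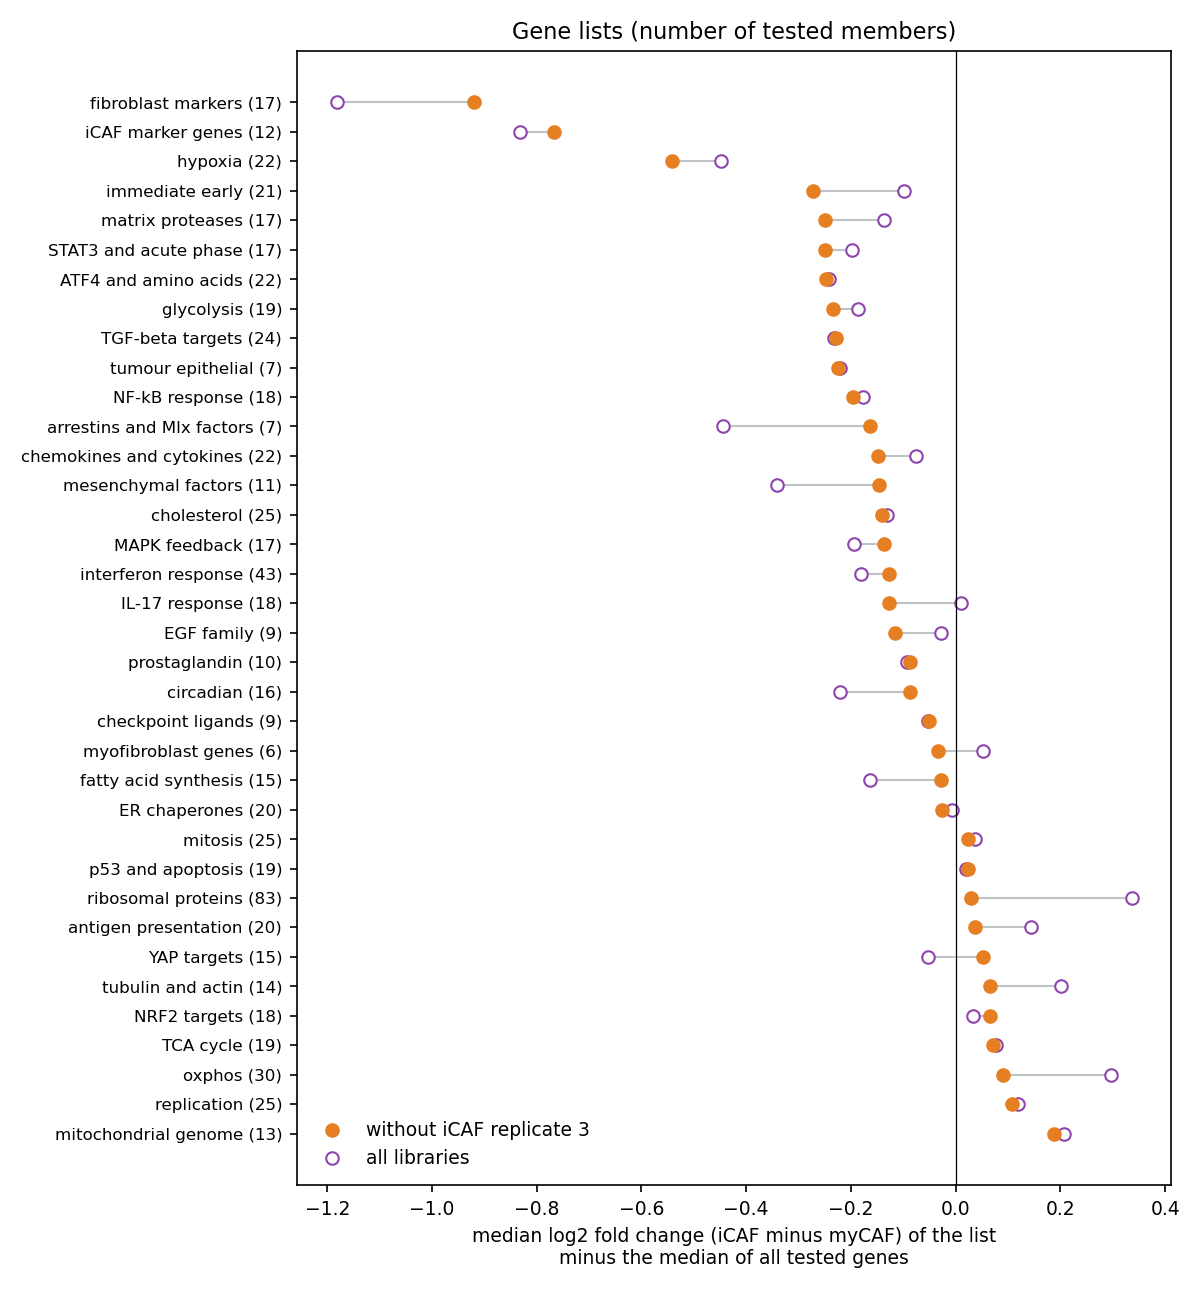
Median log2 fold change, iCAF minus myCAF, of the tested members of each gene list minus the median of all tested genes, with all libraries (open) and without iCAF replicate 3 (filled). Each line is a list with its number of tested members in brackets, and the vertical line at 0 is the median of all genes. Fibroblast markers, genes of inflammatory fibroblasts and HIF targets lie farthest below 0, and the lists of ribosomal proteins, fibroblast markers and arrestins shift most when iCAF replicate 3 is left out.

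In the remaining lists limma called no member with or without iCAF replicate 3. Respiratory chain genes (30 tested) had a median of 0.14 with all libraries and 0.06 without iCAF replicate 3, and the 13 protein genes of the mitochondrial genome 0.05 and 0.16. Genes of DNA replication (25 tested) had medians of -0.03 and 0.08, and those of mitosis (25 tested) -0.12 and -0.004. Mki67, a marker of cycling cells in all but the resting phase, had 87.5, 118 and 44.0 TPM in iCAF, 129.6, 112 and 135 TPM in myCAF and 116, 122 and 105 TPM in qPSC libraries, with iCAF replicate 3 far below the other 8 (limma, adjusted p = 0.264, and 0.243 without it). At an unadjusted p under 0.05 without iCAF replicate 3, which 6.27% of all tested genes met as higher and 13.8% as lower, 8 replication genes were higher and 0 lower, 3 mitosis genes were higher and 3 lower, 2 respiratory chain genes were higher, and 1 mitochondrial gene was higher. The 83 ribosomal protein genes had medians of 0.18 and 0.002, so their shift rested on iCAF replicate 3.

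Endoplasmic reticulum chaperones (20 tested) had medians of -0.16 with all libraries and -0.05 without iCAF replicate 3, targets of the antioxidant factor NRF2 (18 tested) -0.12 and 0.04, tricarboxylic acid cycle genes (19 tested) -0.08 and 0.04, and YAP targets (15 tested) -0.20 and 0.02. The signs of the last 3 thus changed with that library. Tubulin and actin genes (14 tested) had medians of 0.05 and 0.04, the EGF family (9 tested) -0.18 and -0.14, checkpoint ligands (9 tested) -0.20 and -0.08, prostaglandin genes (10 tested) -0.25 and -0.12, and matrix proteases (17 tested) -0.29 and -0.28. Ptgs2, the cyclooxygenase that prostaglandin synthesis depends on during inflammation, had 599, 699 and 733 TPM in iCAF, 964, 1202 and 940.5 TPM in myCAF and 1397, 1572 and 1089.5 TPM in qPSC libraries (by limma, adjusted p = 0.129, and 0.0836 without iCAF replicate 3). Factors of mesenchymal transition (11 tested) had medians of -0.49 and -0.17, with Vim, their filament gene, at 3227, 3169 and 3159 TPM in iCAF, 3059.7, 3180.0 and 3186 TPM in myCAF and 2982, 2756 and 2997 TPM in qPSC libraries (by limma, adjusted p = 0.842, and 0.805 without iCAF replicate 3). The 7 keratin and junction genes had medians of -0.37 and -0.25, and Krt19, a keratin of duct cells, had 11.2, 21.9 and 36.1 TPM in iCAF, 36.9, 44.1 and 44.8 TPM in myCAF and 18.8, 10.4 and 18.1 TPM in qPSC libraries. The lowest myCAF value of Krt19 was just above iCAF replicate 3, and the gene did not pass (limma, adjusted p = 0.236, and 0.073 without iCAF replicate 3). The acinar and endothelial list had 1 tested gene, and none of the 18 leukocyte markers was tested.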

How the data were processed

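Per the labels' protocols, tumour cells sorted by dye from 9 co-cultures gave stranded mRNA libraries read from 1 end over 50 bases. The deposited table, made by the authors, holds TPM of 41457 genes that sum to 1000000 per library, and 2 columns of the authors' own differences and fold changes were not used. The submitters' processing notes name Salmon, DESeq2 and R 4.0.1. Build and annotation were not given in the sources used here. A TPM value is a share of its library, so unusual composition shifts all other genes of that library. Groups and replicate numbers came from the sample titles.

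Genes were kept where 3 or more of the 6 iCAF and myCAF libraries reached 1 TPM. One limma model (version 3.58.1, R 4.3.3, trend on) of log2(TPM + 1) by group covered the 9 libraries, and its contrast was iCAF minus myCAF. The threshold was a Benjamini-Hochberg adjusted p of 0.05. Folds come from log2(TPM + 1) and so understate changes of low genes. Of the symbols, 98.9% matched 1 gene model of GENCODE M21 (GRCm38), the source of gene coordinates and exon lengths. Multiplied by exon length, 97.8% to 98.05% of low values (under 200 reads) were whole numbers of a library's step within 0.05 reads, and these implied reads served for depth and limma-voom. Replicates differed by more than sampling noise, with a chi-square per degree of freedom of 8.06 or more.

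The 38 gene lists and the members named were chosen with earlier results of these data known, so they are described by counts and medians and support nothing by themselves. Named genes are the 10 largest called changes per direction in each of the 2 fits (at least 5 TPM in the higher group, no overlap), up to 4 called members per list, and a set of 19 markers. Other list members named beside them, and genes marked so in the text, were chosen after their values were seen. The procedure was run on simulated libraries with the same fixed spread for every gene and no library of unusual composition. That run therefore says little about the calls in these data. Alternatives were other pseudocounts, filters, centring, rescaling, fewer libraries, a replicate block, limma without trend or robust, limma-voom, a fold minimum and each library left out. Those that combine iCAF replicate 3 left out with limma-voom, a pseudocount of 0.1, rescaling or a second library left out were chosen after seeing the data. Python 3.11.15, pandas 2.3.3 and matplotlib 3.10.9 made tables and figures. Promoters are RefSeq windows.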

Additional observations from a re-analysis of the deposited data

How the results depend on the processing

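The count of 7 lower genes with all libraries was the same with a pseudocount of 0.1 or 0.5 and with the filter set over 9 libraries, and 6 or 8 under the stricter filter or rescaling without ribosomal protein genes. It was 1 without the trend, with robust limma and for folds above 1.2 (Postn each time) and with limma-voom (Arrdc3). It was also 1 without a filter, where the gene was Tmsb15b1 and none of the 7 was called, and it was 0 with median centring, with only the 6 libraries and with a replicate block. In the fits with a count of 0, limma gave 1021 to 1579 lower genes at an unadjusted p under 0.05. Leaving out 1 library gave 0 to 332 lower and 0 to 14 higher calls. Without iCAF replicate 3, the 56 lower and 14 higher calls became 33 and 17 with median centring, 68 and 20 with limma-voom, 62 and 14 with a pseudocount of 0.1, 58 and 17 with rescaling, 8 and 0 with only the other 5 libraries, and 9 and 0 with the replicate block. A second library left out gave 4 to 874 lower and 1 to 178 higher calls. Of the 70 genes, limma-voom called 63 and median centring 44.

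Same-numbered iCAF and myCAF libraries had deviations that correlated at -0.27, -0.36 and -0.31. Deviations within a group of so few libraries depend on each other, so these values cannot decide whether the numbers pair the libraries. The main fit used the numbers as names only. The replicate block moved the count of lower calls to 0, with 1579 genes at an unadjusted p under 0.05, and not every library correlated best with its own number.

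Among 53 named genes, 1465 of the values under alternatives kept direction and side of the threshold, 309 passed where the fit with all libraries had not, 126 no longer passed, and 2 changed sign. Both were Krt8, at 0.10 with median centring and 0.0016 with limma-voom against -0.09, and the cause was not tested. The fibroblast index difference of -1.26 was -1.48 with a pseudocount of 0.1, -1.07 over all 20 markers and -1.55 to -1.04 with a library left out. Estimated library weights were not run. With 3 libraries per group, and 1 of unusual composition, the count of calls depended on the library left out.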
